A study of Homo sapiens with 8 samples.

Results

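S100A9, S100A12 and S100A8 lie side by side on chromosome 1, and the open chromatin around them was compared across 4 treatments of a leukaemia cell line. A region was included when it overlapped the body of 1 of these 3 genes extended by 50 kb on each side (GENCODE release 44, hg38). The 3 windows overlap and together run from chr1:153307854-153441073. They held 15 of the 161291 regions found in any of the 4 deposited peak lists, numbered here 1 to 15 from left to right. The window of S100A9 took in 12 of them, that of S100A12 13 and that of S100A8 all 15, so the genes share most of their regions and are not independent of each other.

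Chromatin accessibility was measured by ATAC-seq, in which a transposase inserts sequencing adapters into DNA that is not tightly packed. The cells were U-937, an established human line of monocytic character that the labels describe as acute myeloid leukaemia. They were treated for 24 h with DMSO as vehicle, ATRA (0.1 µM), Corin (0.1 µM) or both, again at 0.1 µM each (the combination). There were 8 samples, 2 in each group, and the authors deposited 1 peak list per group, made from both samples. ATRA is all-trans retinoic acid, a ligand of the retinoic acid receptors that drives myeloid cells towards maturity, and Corin is a dual inhibitor that blocks both the deacetylase and the demethylase of the CoREST co-repressor complex. All groups are the same cell line with no engineered allele, so they model 1 leukaemia. Since replicates were combined before deposition, no difference between lists could be set against replicate error, no test was possible, and every comparison with DMSO uses the same DMSO list.

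S100A8 and S100A9 encode small calcium-binding proteins that pair to form calprotectin, one of the most abundant proteins in the cytosol of neutrophils and monocytes. Calprotectin binds zinc and manganese, which starves microbes of them, and when released it acts on Toll-like receptor 4. S100A12, also called calgranulin C, is a related neutrophil protein that binds the receptor RAGE. The genes belong to a large block of S100 and skin-barrier genes on chromosome 1, and S100A8 and S100A9 are commonly used as marks of granulocyte and monocyte maturation. Factors of the C/EBP family and PU.1 (gene SPI1) are known regulators of myeloid genes.

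S100A9 (ENSG00000163220.11) occupies chr1:153357854-153361023 on the plus strand. S100A12 (ENSG00000163221.9) occupies chr1:153373711-153375621 and S100A8 (ENSG00000143546.10) occupies chr1:153390032-153391073, both on the minus strand. The 250 bases before each annotated start are shown because all 3 starts lay in open regions in every list. They are RefSeq sequences (GRCh38.p14), written 5′ to 3′ on the coding strand, and the capitals mark matches on either strand to TTNNGNAA (C/EBP), GAGGAAG (PU.1), TGANTCA (AP-1), TGTGGT (RUNX) and TATAAA. S100A9 is read from chr1:153357604-153357853 on the plus strand, S100A12 from chr1:153375622-153375871 and S100A8 from chr1:153391074-153391323 on the minus strand.
S100A9 promoter: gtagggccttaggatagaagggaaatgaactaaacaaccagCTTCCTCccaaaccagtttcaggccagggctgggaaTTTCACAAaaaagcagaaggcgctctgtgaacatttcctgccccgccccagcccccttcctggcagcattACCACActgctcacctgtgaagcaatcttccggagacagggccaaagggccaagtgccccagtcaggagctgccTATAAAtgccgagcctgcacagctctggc
S100A12 promoter: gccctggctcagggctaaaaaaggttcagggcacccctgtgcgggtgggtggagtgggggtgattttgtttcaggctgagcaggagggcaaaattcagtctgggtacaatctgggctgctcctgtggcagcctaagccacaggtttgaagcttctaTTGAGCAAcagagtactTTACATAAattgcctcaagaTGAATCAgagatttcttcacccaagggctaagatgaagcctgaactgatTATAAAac
S100A8 promoter: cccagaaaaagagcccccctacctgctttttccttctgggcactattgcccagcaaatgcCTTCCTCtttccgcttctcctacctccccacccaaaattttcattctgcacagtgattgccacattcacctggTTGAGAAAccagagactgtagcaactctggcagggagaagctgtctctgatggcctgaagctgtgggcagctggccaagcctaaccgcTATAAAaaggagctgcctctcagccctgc

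The promoters of S100A9 and S100A8, the calprotectin pair, had the same layout at the start. TATAAA began 29 bases before the annotated start in both of them and 8 bases before it in S100A12. Over 35116 RefSeq promoters, 2.44% held TATAAA on the coding strand within the last 40 bases. A C/EBP match was present in all 3 sequences, beginning 173 bases before the start of S100A9, 117 bases before that of S100A8, and 94 and 77 bases before that of S100A12. Such a match stood in 33.2% of all promoters of this length. PU.1 letters stood in S100A9 (209 bases before the start) and S100A8 (190 bases), against 11.2% of promoters. The S100A12 sequence held the AP-1 letters 57 bases before its start, found in 6.57% of promoters, and the S100A9 sequence held RUNX letters 103 bases before its start, found in 11%. These matches describe the letters only and do not show that a factor was bound.

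The regions away from the starts that stood out most are shown next, as 200 bases of hg38 centred on the strongest summit, on the plus strand, with the same capitals. Region 7 (chr1:153368568-153368767) lies between S100A9 and S100A12 and was past the threshold described below in each treatment. Region 8 (chr1:153374145-153374344), in an intron of S100A12, was listed only in the lists with ATRA in the medium. Region 1 (chr1:153343415-153343614), in an intron of PGLYRP4, and region 15 (chr1:153436837-153437036), intergenic beyond S100A8, had their highest fold with ATRA alone.
Region 7: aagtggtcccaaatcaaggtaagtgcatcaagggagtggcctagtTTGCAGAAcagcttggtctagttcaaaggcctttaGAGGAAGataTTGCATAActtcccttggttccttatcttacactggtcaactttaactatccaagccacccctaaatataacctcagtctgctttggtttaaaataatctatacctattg
Region 8: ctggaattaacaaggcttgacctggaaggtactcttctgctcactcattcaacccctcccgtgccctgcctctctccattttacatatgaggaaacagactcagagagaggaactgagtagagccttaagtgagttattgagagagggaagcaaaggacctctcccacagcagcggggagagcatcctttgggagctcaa
Region 1: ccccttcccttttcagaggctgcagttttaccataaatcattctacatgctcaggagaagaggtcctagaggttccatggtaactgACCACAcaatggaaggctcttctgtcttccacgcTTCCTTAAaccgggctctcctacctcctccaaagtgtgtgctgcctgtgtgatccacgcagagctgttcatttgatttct
Region 15: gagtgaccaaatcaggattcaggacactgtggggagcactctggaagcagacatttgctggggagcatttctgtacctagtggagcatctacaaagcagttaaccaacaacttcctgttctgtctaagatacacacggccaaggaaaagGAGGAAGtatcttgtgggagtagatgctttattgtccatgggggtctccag

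In region 7 the PU.1 letters at chr1:153368648-153368654 were followed after 3 bases by a C/EBP match at chr1:153368658-153368665. The summits of Corin (153368662) and the combination (153368658) fell in that match, and those of ATRA (153368668) and DMSO (153368669) just past it. Region 15 also held the PU.1 letters, region 1 held C/EBP and RUNX matches, and region 8 held none of the 9 motifs searched. Among the 15 windows of 200 bp, 10 held a C/EBP match, against 40.2% of all 161291 regions. PU.1 letters stood in 3 of 15 (regions 2, 7 and 15) against 17.4%, RUNX in 3 (regions 1, 5 and 10) against 20.7%, AP-1 in 1 (region 9) against 12.1%, TTCNNNGAA (STAT) in 1 (region 6) against 5.13%, and an IRF pattern in 1 (region 12) against 3.10%. No window held the retinoic acid receptor element searched for, AGGTCA repeated with a spacer of 5 or of 2 bases, which only 0.0174% and 0.0105% of all regions held, nor the GFI1 pattern, held by 0.109%. The C/EBP letters were thus common over the genome, and the counts of 15 regions near each other are small.

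**Figure D1:**
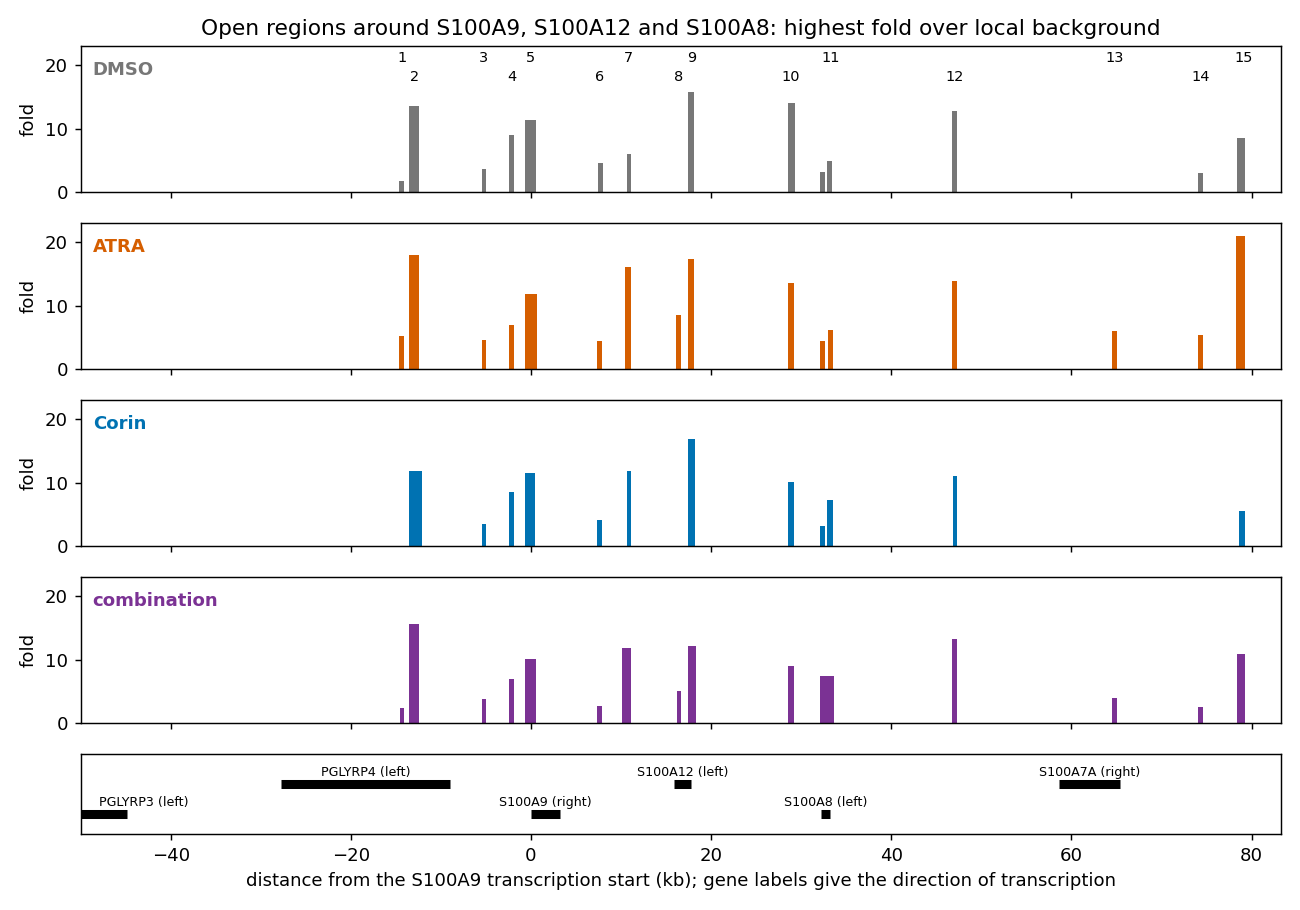
Regions called around S100A9, S100A12 and S100A8 in each peak list. The x axis is the distance from the S100A9 start in kb, the y axis the highest fold over local background in the region, the numbers name the 15 union regions, and regions narrower than 0.5 kb are drawn 0.5 kb wide. The 3 promoters (5, 9 and 11) carry a bar in all 4 panels, while regions 8 and 13 carry one only with ATRA and with the combination.

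Most regions of the locus, 13 of 15, were already called in DMSO, as were 113788 of all 161291 regions. Of the 15 regions, 11 were called in all 4 lists (73.3%, against 41.1% of all regions), among them the starts of all 3 genes. Regions 8 and 13 were called with ATRA and with the combination only, a pattern seen in 3.20% of all regions. Regions 1 and 14 were called in DMSO, with ATRA and with the combination but not with Corin, a pattern seen in 3.67% of all regions. No region was called with Corin and absent elsewhere. A region missing from a list may have fallen short of that list's threshold or been removed by its overlap or filtering step. It may also not have been analysed here. Its absence therefore does not show that the DNA was closed.

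Against DMSO, ATRA gained 2 of its 15 regions and lost 0 of the 13 of DMSO, where 23.3% of the ATRA regions were gained over the genome and 25.4% of the DMSO regions were lost. Corin gained 0 of 11 and lost 2 of 13 (genome 17.8% and 28.4%). The combination gained 2 of 15 and lost 0 of 13 (genome 16.6% and 31.6%). Set against ATRA alone, the combination had the same 15 regions, so it gained 0 and lost 0 (genome 15.4% and 28.7%). Set against Corin alone, it gained 4 of 15 (regions 1, 8, 13 and 14) and lost 0 of 11 (genome 20.4% and 25.1%). These counts lie near or under the genome's shares and mark nothing particular to the locus.

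Region 8 is the gain nearest to a gene of the cluster. It spans chr1:153374105-153374510 within S100A12, with its summit 1376 bp past the S100A12 start. Its fold over local background, the deposited measure of peak height, was 8.45 with ATRA and 4.99 with the combination, at −log10 p of 78.8 and 76.2, and no region was listed there in DMSO or with Corin. Region 13 is weaker still, at chr1:153422541-153422776 in the untranslated part of exon 3 of S100A7A, another S100 gene known from skin. Its fold was 6.03 with ATRA and 3.95 with the combination. The pileup at its summit, meaning the number of overlapping reads or fragments as the authors counted them, was only 60 and 58, against 135 and 207 in region 8.

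Regions 1 and 14, the ones without a call under Corin, were weak in DMSO. Region 1 (chr1:153343311-153343646) had a fold of 1.82 in DMSO, 5.21 with ATRA and 2.36 with the combination, and its pileup was 53, 247 and 86. Region 14 (chr1:153432045-153432331) had a fold of 3.05, 5.31 and 2.56, with a pileup of 51, 68 and 52. Among the lists that called them, both were highest with ATRA. Region 1 was lowest in DMSO, and region 14 was lowest with the combination in fold and in DMSO in pileup. No value is available with Corin. In DMSO, 95.3% of all regions of the list had a higher −log10 p than region 1, and 75.0% had a higher one than region 14.

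To compare heights, the ratio of a region's fold in 2 lists was divided by the median ratio of all regions called in both, because the lists differ in overall height (median fold of all peaks 3.47 in DMSO, 4.80 with ATRA, 3.32 with Corin and 3.68 with the combination). The median log2 ratio removed in this way against DMSO was 0.33 with ATRA, −0.09 with Corin and 0.03 with the combination. A region was called higher or lower past a centred ratio of 1.5. Fold is a peak's pileup over its local background, so it stays level when both grow together. Pileup and background were therefore also solved from the deposited p and fold, and are given beside it. Read depth of the samples is unknown, and the centring of the pileup (median log2 ratio 0.10, −0.13 and 0.16) is the only correction for it.

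**Figure D2:**
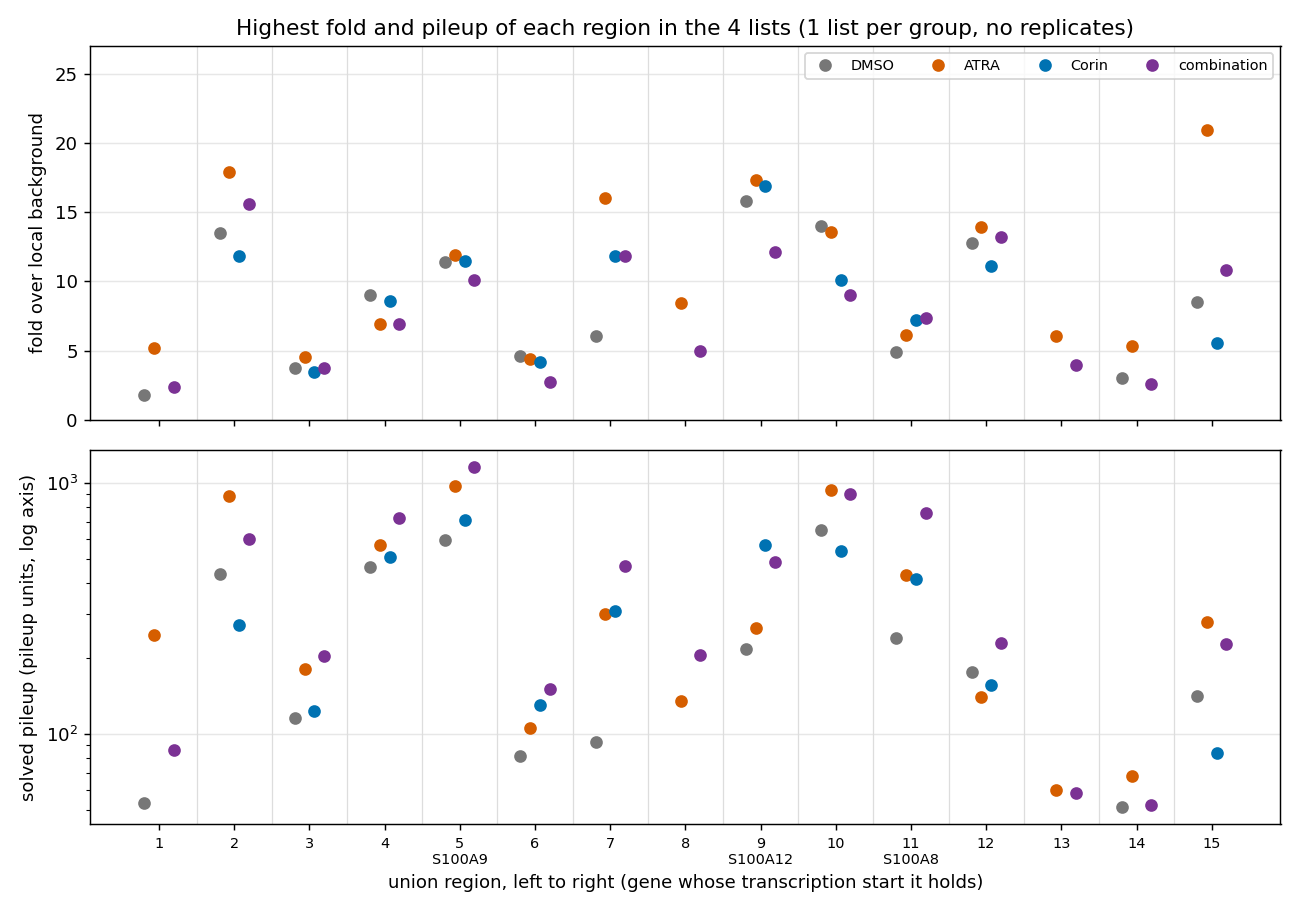
Fold over local background (upper panel, linear axis) and solved pileup (lower panel, log axis) of the 15 regions in the 4 lists, 1 point per list and no replicates. In region 7 the DMSO point is the lowest in both panels, whereas at the S100A9 start (region 5) the folds lie between 10.1 and 11.9 and the pileups spread from 590 to 1153.

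The S100A9 promoter, start of the larger subunit of calprotectin, had nearly the same fold in every list. Region 5 (chr1:153357164-153358532) covers the start and the beginning of the gene, and its summit lay within 18 bp in the 4 lists, about 0.03 kb before the start. Its fold was 11.4 in DMSO, 11.9 with ATRA, 11.5 with Corin and 10.1 with the combination. None of these passed the threshold against DMSO, at centred log2 ratios of −0.28, 0.09 and −0.20. The pileup at the same summit was 590, 968, 714 and 1153, and the local background was 50.7, 80.3, 61.2 and 113. Pileup and background thus were both lowest in DMSO and highest with the combination. The centred pileup was higher past 1.5 times with ATRA (log2 0.61) and with the combination (log2 0.81), and not with Corin (log2 0.41).

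The background at the S100A9 promoter exceeded that of 77.9% of peaks in DMSO, 88.0% with ATRA, 83.1% with Corin and 91.4% with the combination. The commonest background of each list is close to its lowest value. It was 12.8 in DMSO, 9.12 with ATRA, 13.1 with Corin and 13.9 with the combination. The background at the S100A9 promoter was 3.96 times as high in DMSO, 8.81 times with ATRA, 4.66 times with Corin and 8.11 times with the combination. At the S100A8 promoter these multiples were 3.77, 7.59, 4.32 and 7.33. Both ends of the calprotectin pair therefore showed a larger multiple in the lists with ATRA than in those without. At S100A12, which sits between them, the multiples were 1.01, 1.58, 2.49 and 2.80, and the lists with Corin had the larger ones. Regions 3, 4 and 10 also had larger multiples in the lists with ATRA, so this was not particular to the 2 promoters. In region 4 they were 3.93, 8.86, 4.43 and 7.42. The multiples divide by the commonest background, which was lowest with ATRA. As a percentage of peaks with a lower background, the S100A8 promoter stood at 76.6, 84.5, 81.0 and 89.4. The genome's share of this order was not worked out, and what sets the background was not tested.

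The S100A8 promoter was the promoter of the 3 that was highest in fold after treatment relative to DMSO. Region 11 (chr1:153389997-153391477) includes the S100A8 start and its 3′ end. Its fold was 4.93 in DMSO, 6.15 with ATRA, 7.20 with Corin and 7.39 with the combination, and its −log10 p was 87.4, 188, 206 and 381. The pileup was 242, 431, 415 and 762. All 3 treated lists stood above DMSO, and the combination stood above both single compounds in pileup. Corin passed the threshold against DMSO in fold (centred log2 0.63, a ratio of 1.55, above 94.6% of shared regions). Without centring that ratio was 1.46, short of the threshold. The combination just missed it (log2 0.56, a ratio of 1.47), and ATRA matched the genome's median (log2 −0.01). In pileup all 3 passed it, at log2 0.73 with ATRA, 0.91 with Corin and 1.5 with the combination, the last above 98.7% of shared regions.

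The S100A8 region also changed in extent. In DMSO, with ATRA and with Corin the start and the 3′ part of the gene were separate regions, whereas with the combination a single region of 1481 bp covered the whole gene. The 3′ peak lay in coding exon 3 or at its edge. Its fold was 3.23 in DMSO, 4.46 with ATRA, 3.12 with Corin and 4.16 with the combination, higher in the lists with ATRA before centring. These folds were not centred. Over all shared regions the median fold ratio to DMSO was 1.26 with ATRA, 0.943 with Corin and 1.02 with the combination. The peak at the start was higher in fold in the lists with Corin, while its pileup was 431 with ATRA and 415 with Corin. The separate region at the start was 457 bp wide in DMSO, 637 bp with ATRA and 635 bp with Corin. Read depth is unknown, and its part in the joined call was not tested.

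The S100A12 promoter had the highest fold of the 3 starts in each list and a different order among the lists. Region 9 (chr1:153375267-153376216) had a fold of 15.8 in DMSO, 17.3 with ATRA, 16.9 with Corin and 12.1 with the combination. The centred log2 ratios to DMSO were −0.20, 0.18 and −0.41, none past the threshold. The pileup was 218, 265, 568 and 484, and the background 12.9, 14.4, 32.7 and 39.1. In pileup the lists with Corin stood above the lists without it, and ATRA alone stayed near DMSO (centred log2 0.18). Corin was at log2 1.51, above 99.1% of shared regions, and the combination at 0.99, above 95.5%. The summit lay at 153375687 in DMSO and 153375690 with ATRA, and at 153375717 with Corin and 153375732 with the combination, a spread of 45 bp, the widest of the 15 regions.

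**Figure D3:**
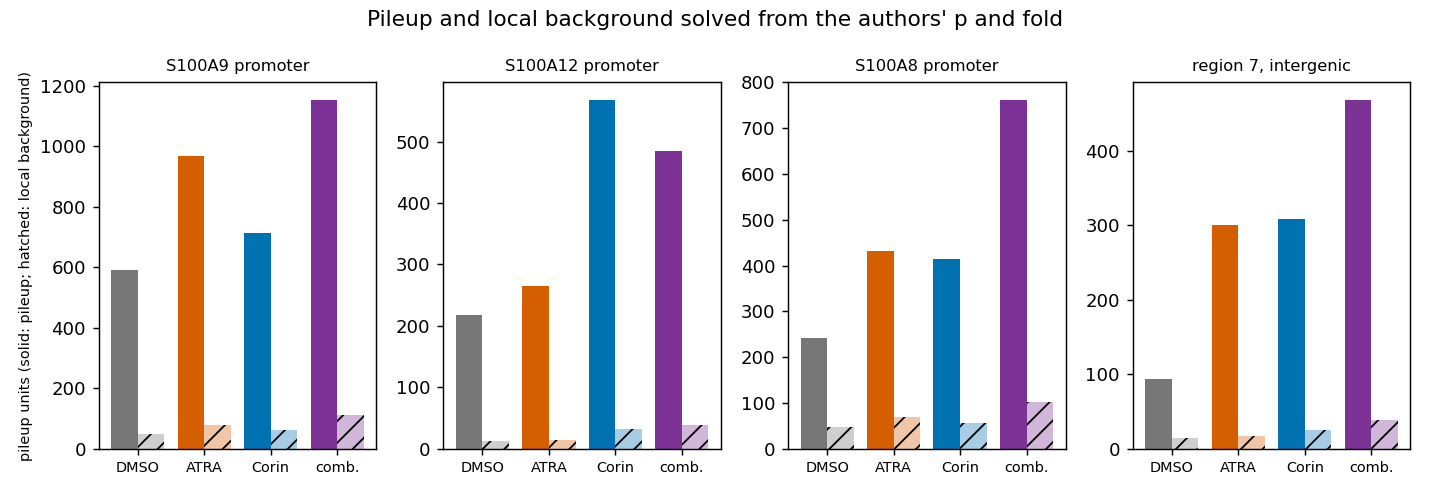
Solved pileup (solid bars) and local background (hatched bars) at the highest summit of the 3 promoter regions and of region 7, in pileup units, with a separate y axis from 0 in each panel. Pileup was highest with the combination at S100A9 (1153), S100A8 (762) and region 7 (468) and with Corin at S100A12 (568).

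Region 7, between S100A9 and S100A12, was the single region that passed the threshold in fold in all 3 treatments. It spans chr1:153368013-153369005, 10.8 kb past the start of S100A9 and 6.95 kb from that of S100A12, and no coding gene is annotated under it. Its fold was 6.06 in DMSO, 16 with ATRA, 11.8 with Corin and 11.8 with the combination. Its pileup was 93, 300, 308 and 468, and its −log10 p was 43.0, 248, 215 and 322. Every treated list stood well above DMSO on each of these scales. The centred log2 ratio of the fold was 1.06 with ATRA, 1.05 with Corin and 0.93 with the combination, above 94.0%, 98.5% and 97.2% of shared regions. The centred pileup gave 1.59, 1.86 and 2.17, above 97.9%, 99.7% and 99.8%. The combination did not pass the threshold over either compound in fold (log2 −0.10 against ATRA and −0.11 against Corin). In pileup it passed it against ATRA (log2 0.65) and not against Corin (log2 0.33). The region was 413 bp wide in DMSO, 741 bp with ATRA, 463 bp with Corin and 969 bp with the combination.

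Regions 1 and 15, at the outer ends of the series of regions, were highest with ATRA alone among the lists that called them. Region 15 (chr1:153436175-153437118) lies 45.9 kb from the S100A8 start, beyond S100A7A. Its fold was 8.51 in DMSO, 20.9 with ATRA, 5.58 with Corin and 10.8 with the combination, and the pileup was 142, 279, 84 and 229. ATRA was the highest list and Corin the lowest on both scales. Against DMSO the centred log2 fold ratio was 0.96 with ATRA, −0.52 with Corin and 0.32 with the combination. Region 1 reached log2 1.18 with ATRA, above 95.5% of shared regions, and 0.35 with the combination. With the combination against DMSO, neither region passed the threshold in fold or in pileup. With Corin added, both regions were lower in fold than with ATRA alone, at log2 −0.81 for region 1 and −0.61 for region 15. In pileup region 1 was lower as well (log2 −1.51), while region 15 did not pass the threshold (log2 −0.28).

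Region 2, in a neighbouring gene, was among the regions of highest fold in each list. It spans chr1:153344279-153345714 in PGLYRP4, a gene for a peptidoglycan recognition protein, about 13 kb before S100A9. Its fold was 13.5 in DMSO, 17.9 with ATRA, 11.8 with Corin and 15.6 with the combination, and its pileup was 432, 889, 272 and 599. Both lists with ATRA stood above DMSO and Corin alone stood below it, and the fold did not pass the threshold in any comparison. The centred pileup passed it with ATRA against DMSO (log2 0.94, above 90.7% of shared regions) and with the combination against Corin (log2 0.86, above 93.6%). The summit lay within 6 bp in the 4 lists.

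Regions 4 and 10 flank the calprotectin genes and were high in all lists. Region 4 (chr1:153355510-153355826), 2168 bp before S100A9, had a fold of 9.01 in DMSO, 6.93 with ATRA, 8.57 with Corin and 6.92 with the combination. Its pileup was 461, 566, 506 and 722. Region 10 (chr1:153386349-153387173), 4296 bp from the S100A8 start and past its 3′ end, had a fold of 14, 13.6, 10.1 and 9.0 and a pileup of 648, 936, 538 and 900. In both, the lists with the lowest fold were not those with the lowest pileup. Region 4 was called lower in fold with ATRA (log2 −0.71) and region 10 with the combination (log2 −0.67), while the centred pileup was above the genome's median in both cases, at 0.19 and 0.31.

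Region 6 (chr1:153365300-153365811), past the 3′ end of S100A9, had a fold of 4.60 in DMSO, 4.39 with ATRA, 4.19 with Corin and 2.76 with the combination, and a pileup of 82, 106, 131 and 151. Against DMSO the combination was called lower in fold (log2 −0.77) and higher in pileup (log2 0.72), so the scales disagree, and against Corin it was lower in fold (log2 −0.71) and not in pileup (log2 −0.07). Region 3 (chr1:153352513-153352744) had folds from 3.46 to 4.53. Region 12 (chr1:153404624-153405164), between S100A8 and S100A7A, had folds of 12.8, 13.9, 11.1 and 13.2 in the same order of lists and sat on the commonest background of the genome in the DMSO, ATRA and Corin lists.

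Counted over the locus, more regions were higher in pileup than in fold. With ATRA, 3 of 13 shared regions were higher in fold (1, 7 and 15) and 1 lower (4), where 16.6% and 8.80% of shared regions were called over the genome. In pileup 6 of 13 were higher and 0 lower (genome 18.3% and 16.4%). With Corin, 2 of 11 were higher in fold (7 and 11) and 0 lower (genome 6.34% and 10.8%), and in pileup 4 were higher and 1 lower (genome 10.2% and 13.9%). With the combination, 1 of 13 was higher in fold (7) and 2 lower (6 and 10), against 8.26% and 12.1%, and in pileup 6 were higher and 0 lower, against 12.5% and 19.4%. The median centred log2 fold ratio of the regions was −0.05 with ATRA, −0.02 with Corin and −0.01 with the combination, near the genome's own median of 0. The median centred log2 pileup ratio was 0.55, 0.27 and 0.54, with 12 of 13, 7 of 11 and 12 of 13 regions above the genome's median. The regions share 1 stretch of DNA, so these counts are not independent of each other.

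**Figure D4:**
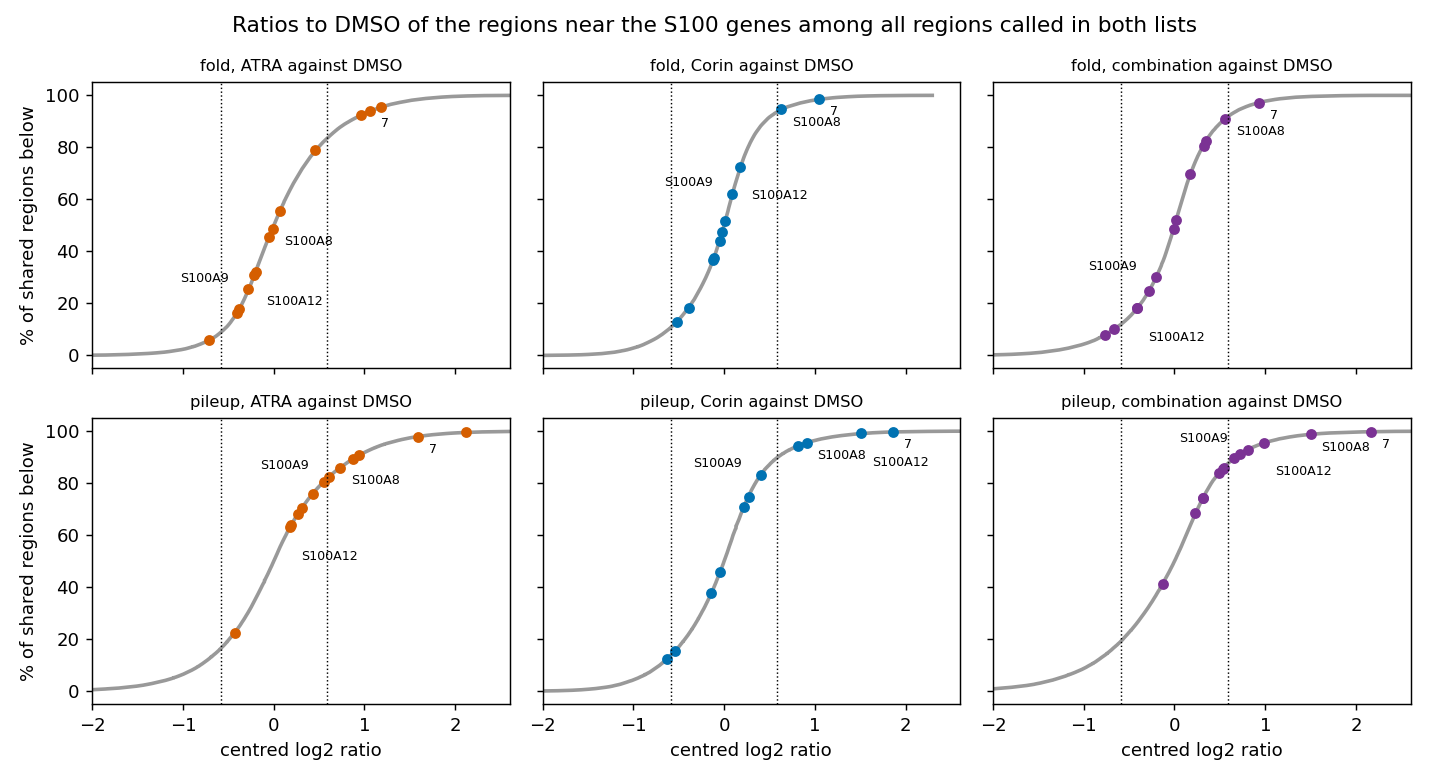
Centred log2 ratios to DMSO of the shared regions near the 3 genes (points) on the cumulative curve of all shared regions (grey), for fold in the upper row and pileup in the lower row. The x axis is the centred log2 ratio, the y axis the percent of shared regions below it, dotted lines mark a ratio of 1.5 in either direction, and region 7 sits past the right line in all 6 panels.

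Combining the compounds was also set against each alone. Against ATRA, 1 of 15 regions was higher in fold (region 11, the S100A8 promoter, log2 0.60, or 0.26 and short of the threshold without centring) and 3 were lower (1, 14 and 15), where 7.18% and 18.1% of shared regions were called. In pileup 5 were higher and 1 lower, against 12.9% and 19.8%. Against Corin, 1 of 11 was higher (region 15, log2 0.85) and 1 lower (region 6), where 9.71% and 8.97% were called, and in pileup 3 were higher and 0 lower, against 12.4% and 15.8%. Among the 11 regions called in all lists, the pileup was highest with the combination in 7, with ATRA in 3, with Corin in 1 and with DMSO in 0. Over the 66303 regions called in all lists genome-wide, those shares were 36.9%, 33.1%, 11.6% and 18.3%. Within the locus the pileup exceeded that of DMSO in 10 of 11 regions with ATRA, 7 with Corin and 11 with the combination, against 59.3%, 36.3% and 62.5% of those 66303 regions, all without centring.

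The S100 family, with the 3 genes of the locus included, showed few differences at its promoters. Of 20 S100 genes, 15 had a region within 1 kb of a start in DMSO, 15 with ATRA, 15 with Corin and 14 with the combination. S100A3, S100A7, S100A7A and S100G had none in any list. With ATRA, 0 of 15 shared promoters were higher and 0 lower, where 3.71% and 3.09% of coding genes were. With Corin, 1 of 14 was higher, S100A8, and 0 lower (genome 1.43% and 1.80%). With the combination, 0 of 13 were higher and 0 lower (genome 2.49% and 2.19%). Against ATRA the combination was higher at 1 of 13, S100A8, and lower at 0 (genome 5.92% and 3.63%), and against Corin higher at 1 of 13, S100Z, and lower at 0 (genome 1.90% and 1.41%). S100Z, another member of the family, had no promoter region in DMSO or with ATRA, a fold of 2.69 with Corin and 5.56 with the combination. A region shared by the neighbouring starts of S100A1 and S100A13 had a fold of 2.30 in DMSO, 2.11 with ATRA and 1.94 with Corin and none was listed with the combination. S100A16 had 2.68 in DMSO, 2.40 with ATRA, none listed with Corin and 1.97 with the combination. Over all coding genes, 14286 had a promoter region in DMSO. Of these, 741 had none listed with ATRA, 661 with Corin and 765 with the combination. Newly listed against DMSO were 276 genes with ATRA, 325 with Corin and 316 with the combination. In the S100 family 0, 1 and 2 were lost and 0, 1 and 1 gained, in the same order.

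Of 12 receptors and partners of these proteins, 9 had a promoter region in DMSO, 9 with ATRA, 10 with Corin and 9 with the combination. That share is near the one over all coding genes, of which 71.3% had one in DMSO. TLR4, the receptor of calprotectin, had a fold of 14.1, 15.6, 15.1 and 15.5 in that order, none past the threshold. AGER, which encodes RAGE, had a promoter region with Corin only, at a fold of 1.90. The same gain against DMSO was seen at 325 of the 13950 coding genes open with Corin. CD36, a scavenger receptor of monocytes that takes part in the transport of fatty acids with calprotectin, was at 7.17, 8.27, 11 and 7.70. It was higher with Corin than with DMSO (centred log2 0.70), a call lost when only coding transcripts were used, and lower with the combination than with Corin (log2 −0.61), where 1.41% of coding genes were lower. Of 8 transcription factors known at S100A8 and S100A9, 7 were open in each list, and none was called higher or lower against DMSO, where no treatment had more than 3.71% of coding genes higher or 3.09% lower. IRF7, an interferon regulatory factor, was at 12.6 in DMSO, 22.0 with ATRA, 8.31 with Corin and 10.9 with the combination, and was lower with the combination than with ATRA (log2 −0.67), where 3.63% of coding genes were lower. SPI1, which encodes PU.1, was at 8.22, 10.1, 8.49 and 10.8, and CEBPA at 8.23, 9.62, 8.24 and 8.52. The neighbours PGLYRP3 and PGLYRP4 had no promoter region in any list, although regions 1 and 2 lie inside PGLYRP4.

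The label of the line was checked against promoters of marker genes. Of 8 myeloid markers, 6 were open in DMSO, 6 with ATRA, 7 with Corin and 6 with the combination, MPO being without a listed region throughout and FCGR1A listed with Corin only, at a fold of 4.31. Of 3 T cell markers, 1 was open in every list (CD8A). Of 3 erythroid markers, 2 were open in DMSO, 0 with ATRA, 1 with Corin and 1 with the combination. GATA1, an erythroid transcription factor, had a fold of 2.16 in DMSO and 2.6 with Corin, with none listed otherwise. The globin gene HBA1 had 3.41 in DMSO and 4.15 with the combination, with none listed otherwise. Of the 14286 coding genes open in DMSO, 741 were lost with ATRA, 661 with Corin and 765 with the combination. With Corin, 325 of 13950 were gained. Keratinocyte markers, of the other main cell type known for these S100 genes, had 0 of 3 open in each list. For comparison, 71.3% of the 20033 coding genes had a promoter region in DMSO, 69.0% with ATRA, 69.6% with Corin and 69.1% with the combination, so an open promoter alone does not mark a cell type.

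The genes with the most similar promoter pattern differed for each member. Likeness was the Euclidean distance over the 3 centred log2 fold ratios to DMSO, among 13143 coding genes. Nearest to S100A8 were CYP2S1 (distance 0.011), CATSPER1 (0.043) and NOD2 (0.060). Nearest to S100A9 were FARSB (0.021), SLFN13 (0.028) and KLHL17 (0.035). For S100A12 they were C1orf100 (0.080), GRTP1 (0.084) and OGDHL (0.11). With 3 ratios that share 1 DMSO list, this is a description of the lists only.

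The choice of 50 kb left out 2 close regions. On the left, a region at chr1:153306921-153307434 lay 420 bp outside the window, with a fold of 3.55 in DMSO, 5.54 with ATRA, none listed with Corin and 2.08 with the combination. On the right, a region at chr1:153443308-153443901 lay 2235 bp outside, with a fold of 2.19 with Corin and 2.41 with the combination and none listed in DMSO or with ATRA. The outermost regions inside were region 1, 35457 bp from the left edge, and region 15, 3955 bp from the right edge.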

How the data were processed

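ATAC-seq was made from 8 samples of U-937 cells, 2 per group, and the authors deposited 1 peak list per group. Reads were processed with cutadapt, Bowtie2, SAMtools, Picard and MACS2 against hg38, per the submitters' processing notes, and the versions are not given in the sources used here. The file names speak of a naive overlap and of filtering. In the deposited lists the fold is a ratio of the pileup to the local background, the p and q values are −log10 values and the score column is a whole-number score that was not used, all per the narrowPeak layout. The deposited summit position is a distance in bp from the peak's start. Per-sample columns that were not used numbered 0.

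Overlapping peaks on 24 chromosomes were merged within a list, and regions of the 4 lists overlapping by at least 1 bp formed union regions. A region's fold and pileup are each the highest among its peaks in that list. Its summit, background and printed −log10 p are those of the peak with the highest fold. Ranks and ratios of −log10 p use the highest value among its peaks. Pileup and background were solved from p and fold, with p read as a Poisson tail above the observed pileup and adding 1 to both in the fold. The solved pileup was whole within 0.05 for 99.97%, 99.98%, 99.98% and 99.97% of peaks (DMSO, ATRA, Corin, combination), and the method was tested on simulated data. Read depth is unknown, and with 1 list per group there are no error bars. Ratios were centred on the median of all shared regions, and 1.5 times was the threshold. Genes were taken from GENCODE release 44, promoters as regions within 1 kb of a start. All 3 promoter sequences matched RefSeq by gene symbol.

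The members, lists, motifs and rules were chosen with earlier results of these data known. Described are all 15 regions, and genes of the lists that were gained, lost, higher or lower at their promoter. TLR4, SPI1 and CEBPA were added to the description after their values were seen. The result of 1 marker list is not reported here. The tools were Python 3.11.15, pandas 2.3.3, NumPy 2.4.6, SciPy 1.17.1, pysam 0.24.0 and matplotlib 3.10.9.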

Additional observations from a re-analysis of the deposited data

How the results depend on the processing

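Counts of regions in the locus were recomputed under the alternatives for threshold, window, merging, overlap, centring and scale. Promoter counts of the S100 family, of receptors and partners and of transcription factors were recomputed for distance to a start and for transcript type. Of 186 alternative counts from both sets, 128 stayed within 1.5 times of the reported one and 58 did not. Promoter counts that were 0 in both settings are among the 128. Counts here are small, so a difference of 1 region often moves them. Shares over all regions were not worked out under these alternatives, except for centred pileup, so the counts are no result about the locus. Counted within each list, before forming union regions, the 50 kb windows held 14 regions in DMSO, 16 with ATRA, 12 with Corin and 15 with the combination. A window of 10 kb left 9, 10, 9 and 9 of them in the same order. With peaks of a −log10 q of at least 5, and with lists of equal length, Corin lost 1 region in place of 2. With the −log10 q limit, 2 regions were lower with the combination than with Corin.

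Without centring of the fold, ATRA had 0 lower and Corin 1 higher and 1 lower. The combination had 2 higher against DMSO, and 0 higher and 7 lower against ATRA. Over all shared regions the median log2 fold ratio of the combination to ATRA was −0.34 before centring. With pileup in place of fold, 6 were higher and 0 lower with ATRA, 4 higher and 1 lower with Corin, and with the combination 6 higher and 0 lower against DMSO, 5 and 1 against ATRA and 3 and 0 against Corin. With −log10 p in place of fold 7 were higher and 0 lower with ATRA, 4 higher and 1 lower with Corin, and with the combination 7 higher and 0 lower against DMSO, 5 higher against ATRA, and 2 and 2 against Corin. At a ratio of 2, ATRA had 0 lower, Corin 1 higher, and the combination 0 in either direction against DMSO, ATRA and Corin. 2 alternatives were chosen after seeing the data. With regions split at summits, ATRA had 2 lower, and the combination had 2 higher and 2 lower against Corin. With pileup without centring, 7 were higher and 0 lower with ATRA, 4 higher and 2 lower with Corin, and with the combination 9 higher and 0 lower against DMSO, 5 and 1 against ATRA and 7 and 0 against Corin.

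Within 2.5 kb of a start, S100 family promoters that were higher numbered 1 with ATRA, 2 with Corin and 1 with the combination. For receptors and partners within 2.5 kb, 1 was lower with ATRA and 0 were higher with Corin, and with coding transcripts only 0 were higher with Corin, so the call at CD36 was lost.

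Single regions past the threshold had 89 alternative values, of which 58 stayed past it in the same direction, 24 no longer passed it and 7 turned direction. Those not past it had 287, of which 68 newly passed it and 75 changed sign. The 7 that turned from a call all used pileup. Region 4 with ATRA against DMSO was at log2 0.19 centred and 0.30 uncentred, region 6 with the combination against DMSO at 0.72 and 0.88 and against Corin at 0.20 uncentred, and region 10 with the combination against DMSO at 0.31 and 0.47. In these regions the solved local background was higher in the combination or ATRA list than in the list it was set against. No paired analysis was possible because each deposited list combines both replicates of its group, and leaving out a replicate could not be run for the same reason.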
